A study of Sus scrofa with 6 samples.

Results

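The 10 genes of the circadian clock examined in pig abdominal aorta were the activators ARNTL (also called BMAL1) and CLOCK, the repressors PER1, PER2, PER3, CRY1 and CRY2, the nuclear receptors NR1D1 and NR1D2, and the output factor DBP. They were chosen by name, and all 10 were found among the 30477 genes of the expression table, 8 by their symbol and 2, PER3 and NR1D2, by their gene ID because the table gives these no symbol. The samples were abdominal aortas of male Wuzhishan miniature pigs, 3 fed normal chow (NC group) and 3 fed a diet rich in fat, cholesterol and fructose (HFCF group) for 6 months, with 1 RNA library per pig. The sample labels give an age of 3 to 4 months, whereas the methods state that they were 6 to 7 months old when acquired. They lived under a light and dark cycle and were fed each day, and the hour at which each pig was killed is not given in the sources used here. The values are FPKM, fragments counted per length of exon and scaled to the mapped reads of the library, as computed by the authors.

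In mammalian cells the clock is a feedback loop of transcription. ARNTL and CLOCK bind E-box elements together and switch on the PER and CRY genes, whose proteins return to the nucleus and block ARNTL and CLOCK. The same activators drive NR1D1, NR1D2 and DBP, and the NR1D receptors repress ARNTL, so that in a tissue with a running clock ARNTL peaks when NR1D1 and DBP are low, and the reverse. Smooth muscle and endothelial cells of arteries hold such clocks. A single time point per animal shows 1 position on that cycle.

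The tissue label held for smooth muscle: the FPKM of 8 smooth muscle markers summed to between 15914 and 22729 in the NC pigs and to between 7997 and 12892 in the HFCF pigs. Each of 8 macrophage markers was higher in all HFCF pigs than in any NC pig, as were 36.1% of all genes tested. The sums of these markers were 34.3 to 37.9 in the NC pigs and 424.7 to 1034 in the HFCF pigs. HFCF pig 1 stood apart from the other HFCF pigs: the macrophage antigen CD68 was at 261.0 FPKM in it against 113.9 and 98.0, and the heat shock co-chaperone DNAJB1 at 212.7 against 37.1 and 42.3. Relative depth was read from the most frequent ratio of low FPKM values in NC pig 1 to those in each library, over genes with 1 transcript. With NC pig 1 set to 1, it was 1.09 in NC pig 2, 1.37 in NC pig 3 and 1.03 to 1.07 in the HFCF pigs. The read total behind a value is unknown. Between the diets, genes were compared on log2(FPKM + 0.1) with limma over the 15384 genes averaging 0.1 FPKM or more, and a gene was called at a Benjamini-Hochberg adjusted p under 0.05 over all of them. The pseudocount of 0.1 makes the change of low genes appear smaller. Over all tested genes the median log2 fold change was 0.32, a shift that median-ratio scaling brought to -0.0031 and quantile normalization to -0.07, so the changes of the clock genes are also given relative to that median.

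All 10 clock genes passed the expression filter. PER2 and CRY2 fell in the HFCF group, and the other 8 were not called. Calls were made for 28.9% of all tested genes, 22.8% higher and 6.16% lower, against 2 of 10 clock genes called and both lower. The split of all called genes, 3504 higher and 948 lower, depended on scaling and was 2031 to 1967 with median-ratio scaling, 1748 to 1782 with quantile normalization and 2229 to 1527 after rescaling to TPM, whereas PER2 and CRY2 were called lower with each. By the thresholds of the study, a ratio of group means above 2 or below 0.5 with an unadjusted p under 0.05, the same 2 genes passed, where 25.5% of all tested genes passed and 4.82% passed downward. The ranges of the groups did not overlap for 48.2% of all tested genes, 36.1% higher and 12.1% lower, and for these same 2 clock genes. The median log2 fold change of the 10 genes was -0.31, with 4 positive and 6 negative values. Relative to the median of all genes, the 8 clock genes not called had log2 fold changes of 0.72 (ARNTL), 0.57 (NR1D2), 0.34 (DBP), 0.25 (CLOCK), -0.62 (CRY1), -0.64 (NR1D1), -0.90 (PER1) and -1.20 (PER3).

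**Figure D1:**
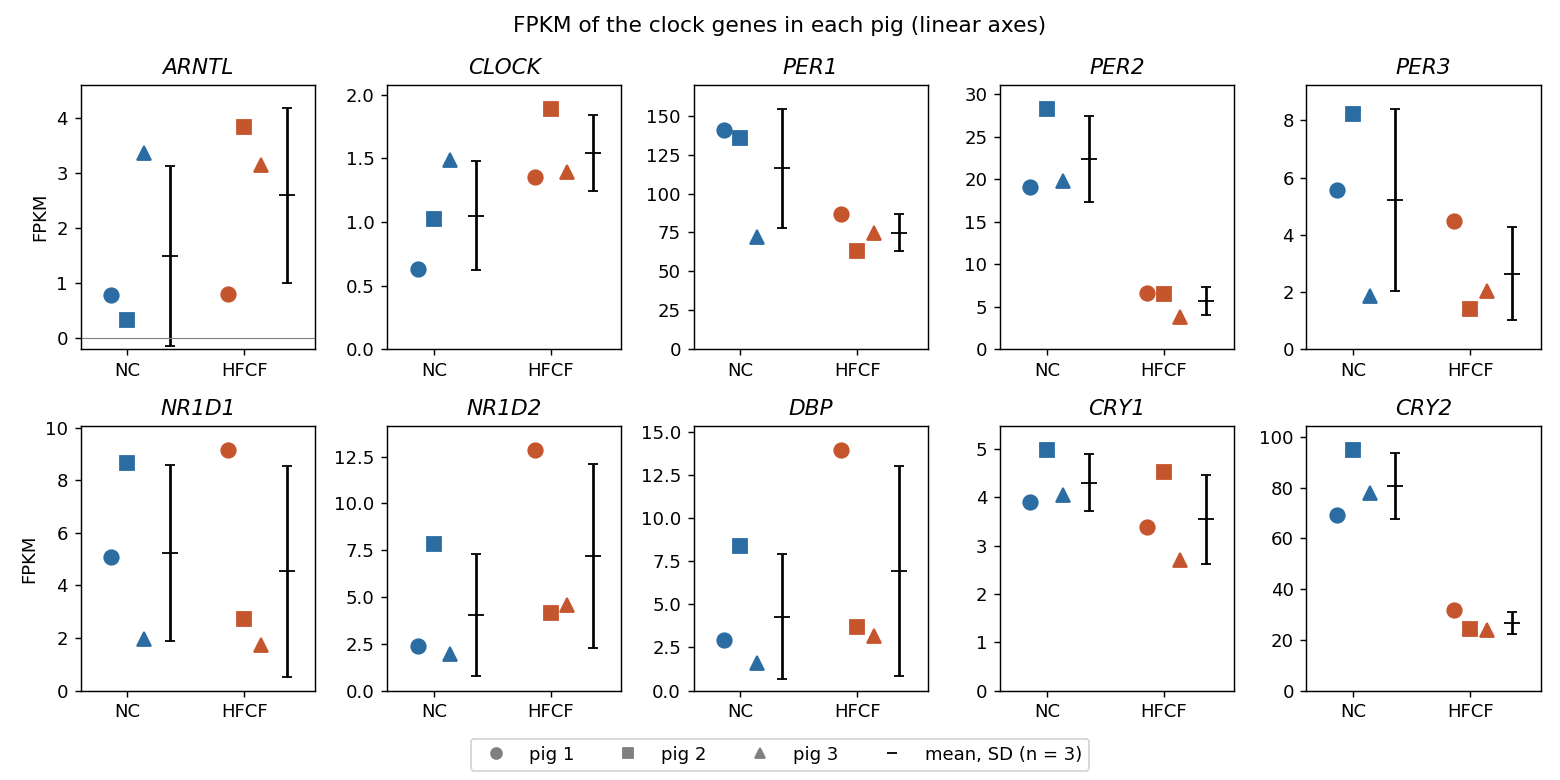
FPKM of each clock gene (vertical axes, linear) in the 3 NC pigs (blue) and the 3 HFCF pigs (orange), with marker shapes for the pig number and black bars for the group mean and SD (n = 3). PER2 and CRY2 separate the diets without overlap, whereas ARNTL, NR1D1, NR1D2, DBP and PER3 spread widely within each diet.

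PER2 encodes a period protein, one of the repressors that close the loop. Its FPKM was 19.1, 28.3 and 19.8 in NC pigs 1 to 3 and 6.68, 6.56 and 3.78 in HFCF pigs 1 to 3. The lowest NC pig was above the highest HFCF pig, and the groups did not overlap. The NC mean of 22.4 ± 5.11 FPKM was 3.95-fold above the HFCF mean of 5.67 ± 1.64 FPKM (SD, n = 3 each). The log2 fold change was -1.98 (standard error 0.27, adjusted p = 0.00355, limma), or -2.30 relative to the median of all genes. The call was kept in all 15 alternative analyses, with log2 fold changes from -2.34 to -1.72.

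CRY2 encodes a cryptochrome, the partner of the period proteins in repression. It was at 69.1, 94.7 and 78.0 FPKM in the NC pigs and at 31.8, 24.2 and 23.8 FPKM in the HFCF pigs. The ranges were again separate. The NC mean of 80.6 ± 13.0 FPKM was 3.03-fold above the HFCF mean of 26.6 ± 4.49 FPKM (SD, n = 3 each). The log2 fold change was -1.60 (standard error 0.18, adjusted p = 0.00204, limma), or -1.92 relative to all genes, and it stayed between -1.95 and -1.47 and called in the 15 alternatives.

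Smooth muscle markers fell in the same pigs. Of the 8 markers 6 were called lower and none higher, beside 6.16% lower and 22.8% higher among all tested genes. The log2 fold changes of all 8 ran from -2.72 for MYOCD, a co-activator of the contractile program, to -0.60 for the actin-binding protein TAGLN, which was not called, with a median of -1.12. In bulk tissue, fewer cells of a type and less RNA per cell cannot be told apart. Measured within each library against the smooth muscle actin ACTA2, PER2 had log2 ratios of -8.90, -8.03 and -8.31 under chow and of -9.01, -9.00 and -10.3 under the HFCF diet. These did not overlap, and the HFCF mean was 1.02 lower on the log2 scale. The same ratio for CRY2 was -7.05, -6.29 and -6.34 under chow and -6.76, -7.11 and -7.64 under the HFCF diet, which overlapped. The marker mattered. Over all 8 smooth muscle markers, the ratio of PER2 was lower without overlap for 3 (ACTA2, MYH11 and TAGLN) and overlapped for 5, and its difference ran from -1.41 for TAGLN to 0.74 for MYOCD. The ratio of CRY2 overlapped for all 8, with negative differences for 7 and a positive one, 1.14, for MYOCD. These ratios were chosen after the values were seen, and no test was made.

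The paralogues of these repressors did not separate the diets. PER1, a period gene that also responds within minutes to hormones and cyclic AMP, had the highest mean of the 10 genes in both groups. It was at 140.5, 135.7 and 72.4 FPKM in the NC pigs and 86.7, 63.2 and 74.9 FPKM in the HFCF pigs. In NC pig 3 CRY2, at 78.0 FPKM, was above PER1. The PER1 value of NC pig 3 lay among those of the HFCF pigs. The log2 fold change of PER1 was -0.58 with a 95% interval from -1.24 to 0.07 (adjusted p = 0.158, limma), and without NC pig 3 it was -0.89 with an adjusted p of 0.0230 (limma). PER3 was at 5.56, 8.21 and 1.88 FPKM in the NC pigs and 4.48, 1.41 and 2.05 FPKM in the HFCF pigs, so that each group held both high and low pigs. Its log2 fold change was -0.88 with a 95% interval from -2.32 to 0.55 (adjusted p = 0.310, limma).

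CRY1, the second cryptochrome, peaks later than most repressors in other tissues. It was at 3.90, 4.97 and 4.04 FPKM in the NC pigs and at 3.40, 4.53 and 2.71 FPKM in the HFCF pigs. The groups overlapped, and the log2 fold change was -0.30 with a 95% interval from -0.85 to 0.26 (adjusted p = 0.382, limma). The log2 ratio of CRY2 to CRY1 within a library was 4.22 ± 0.07 in the NC group and 2.93 ± 0.44 in the HFCF group (SD, n = 3 each), with no overlap. In the RefSeq annotation of Sscrofa11.1 the CRY1 gene overlaps TMEM263 and MTERF2. Both rose in the HFCF group, with log2 fold changes of 1.56 and 1.53 (adjusted p = 0.0234 and 0.0160, limma), and TMEM263 lost its call without any 1 of the HFCF pigs. Without stated strand information, reads of overlapping genes cannot be fully separated, and the value of CRY1 carries that uncertainty.

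ARNTL is the one clock component without which the loop stops. It was at 0.77, 0.33 and 3.37 FPKM in NC pigs 1 to 3 and at 0.80, 3.83 and 3.15 FPKM in HFCF pigs 1 to 3. Values under 1 FPKM and values over 3 FPKM thus occurred in both groups, and NC pig 3 was 10.1-fold above NC pig 2. The log2 fold change between the diets was 1.04 (standard error 0.85, adjusted p = 0.391, limma), and its 95% interval ran from -0.97 to 3.06. An absence of change was therefore not shown. The value moved with single pigs, to 0.38 without NC pig 2, 0.65 without HFCF pig 2, 1.71 without HFCF pig 1 and 1.88 without NC pig 3, and was 0.47 with quantile normalization, none of them called. CLOCK, the partner of ARNTL, was at 0.63, 1.02 and 1.49 FPKM in the NC pigs and 1.36, 1.89 and 1.39 FPKM in the HFCF pigs. The groups overlapped, the log2 fold change was 0.57 (95% interval -0.23 to 1.38, adjusted p = 0.245, limma), and its sign turned with quantile normalization, to -0.07. CLOCK overlaps TMEM165, which was at 5.55, 6.46 and 6.45 FPKM in the NC pigs and 7.53, 7.40 and 7.09 FPKM in the HFCF pigs and was not called.

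NR1D1 encodes REV-ERB alpha, a heme-binding repressor of ARNTL. It was at 5.06, 8.67 and 1.96 FPKM in NC pigs 1 to 3 and at 9.14, 2.72 and 1.73 FPKM in HFCF pigs 1 to 3. NC pigs 1 and 2 and HFCF pig 1, in which ARNTL was under 1 FPKM, held the 3 highest values of NR1D1. The log2 fold change between the diets was -0.32 with a 95% interval from -2.01 to 1.36 (adjusted p = 0.762, limma). It turned positive without NC pig 2 (0.15) or without HFCF pig 3 (0.17). NR1D1 overlaps THRA, the thyroid hormone receptor alpha gene, in the same annotation. THRA was at 17.3, 15.3 and 15.3 FPKM in the NC pigs and 12.4, 14.6 and 16.5 FPKM in the HFCF pigs, an order of pigs that differed from that of NR1D1.

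NR1D2, which encodes REV-ERB beta, was at 2.37, 7.82 and 1.97 FPKM in the NC pigs and at 12.8, 4.15 and 4.56 FPKM in the HFCF pigs. DBP, a transcription factor whose level tracks E-box activity closely, was at 2.93, 8.38 and 1.58 FPKM in the NC pigs and at 13.9, 3.68 and 3.14 FPKM in the HFCF pigs. For both genes NC pig 2 and HFCF pig 1 were the highest of their groups. The log2 fold changes were 0.89 for NR1D2 (95% interval -0.57 to 2.34, adjusted p = 0.314, limma) and 0.67 for DBP (95% interval -1.07 to 2.40, adjusted p = 0.528, limma). Without HFCF pig 1 the log2 fold change of DBP was -0.0025.

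**Figure D2:**
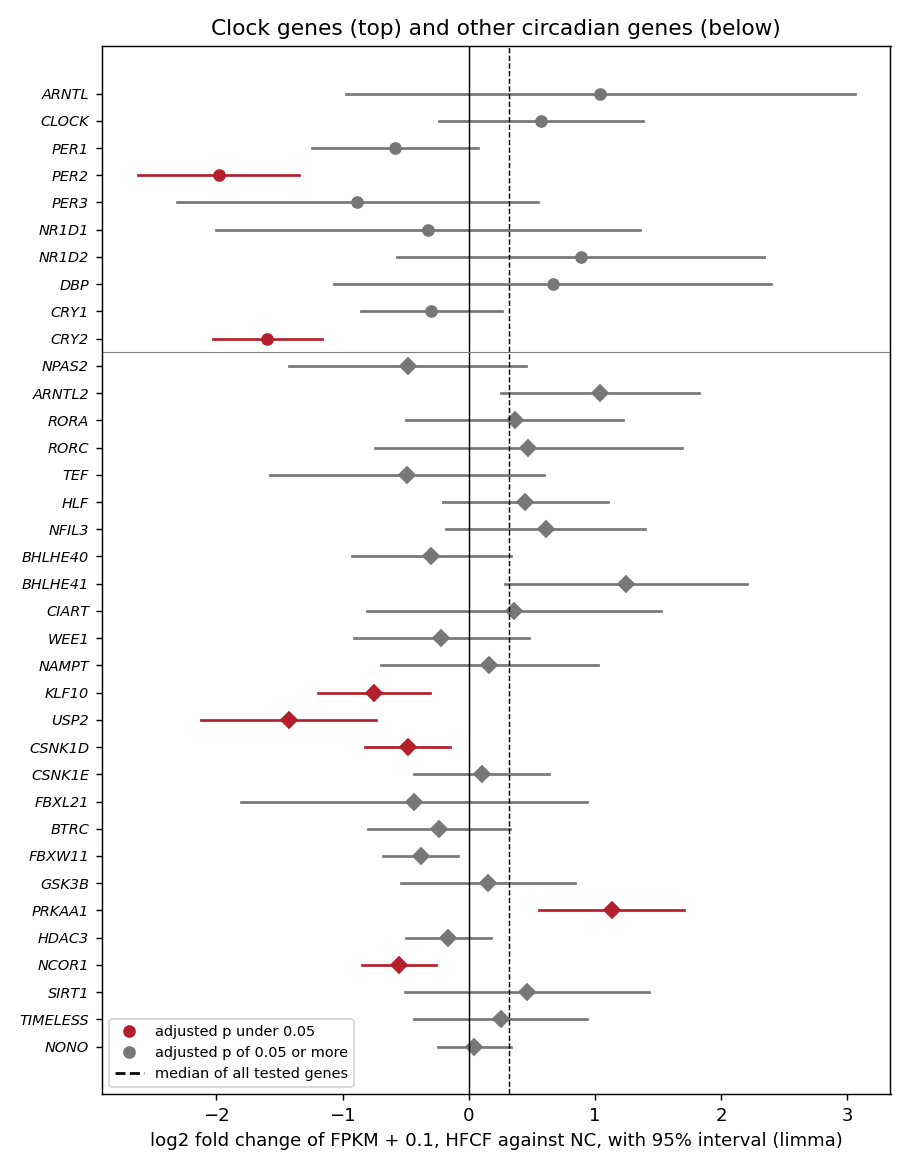
Log2 fold change of FPKM + 0.1 in the HFCF against the NC group (horizontal axis) with its 95% interval from limma, for the 10 clock genes (circles, above the line) and 26 other circadian genes (diamonds), in red where the adjusted p was under 0.05. The intervals of PER2 and CRY2 lie left of 0 and left of the dashed median of all genes (0.32), and those of ARNTL, NR1D1, NR1D2 and DBP span 0.

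The comparison asked for opposed phases, that is, activators and E-box-driven genes moving in opposite directions. Between the diets this was not seen as a shared shift. ARNTL and CLOCK had positive fold changes that were not called. Among the E-box-driven genes PER2 fell. The values of PER1, PER3 and NR1D1 were negative and those of NR1D2 and DBP positive, and none of these 5 was called. Of the cryptochromes, CRY2 fell and CRY1 had a negative value that was not called. As a summary, the mean log2(FPKM + 0.1) of PER1, PER2, PER3, NR1D1, NR1D2 and DBP minus that of ARNTL and CLOCK was taken in each pig, a difference within a library that a common scaling factor leaves nearly unchanged. It was 3.52, 4.55 and 1.15 in NC pigs 1 to 3 and 3.49, 0.99 and 1.21 in HFCF pigs 1 to 3. The group means were 3.07 ± 1.74 and 1.89 ± 1.39 (SD, n = 3 each). The difference between the diets, -1.18, was smaller than the SD of either group. CRY1 and CRY2 were left out of this score. With both added to the E-box-driven genes the difference was -1.32, larger in size than the HFCF SD of 1.22 and smaller than the NC SD of 1.57. No p-value is given for this score.

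Within each diet, pigs with high and low ARNTL differed the other way in NR1D1, NR1D2, DBP and PER3, with NC pig 1 as a partial exception. In the NC group, pig 2 had the lowest ARNTL and the highest NR1D1, NR1D2, DBP and PER3, and pig 3 had the highest ARNTL and the lowest of these 4 genes. From pig 2 to pig 3 ARNTL was 10.1 times higher, while NR1D1, DBP, NR1D2 and PER3 were 4.42, 5.31, 3.97 and 4.38 times lower. In NC pig 1 ARNTL was 4.35 times below pig 3, but NR1D2 was only 1.20 and DBP 1.86 times above pig 3, and ARNTL, NR1D2 and DBP all lay below their group means there, with deviations of -0.32, -0.47 and -0.21 on the log2 scale. In the HFCF group, pig 1 had the lowest ARNTL, 4.77 and 3.93 times below pigs 2 and 3. There NR1D1 was 3.36 and 5.28 times, DBP 3.79 and 4.43 times, NR1D2 3.09 and 2.82 times and PER3 3.18 and 2.18 times above pigs 2 and 3. HFCF pigs 2 and 3 differed little from each other in ARNTL.

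**Figure D3:**
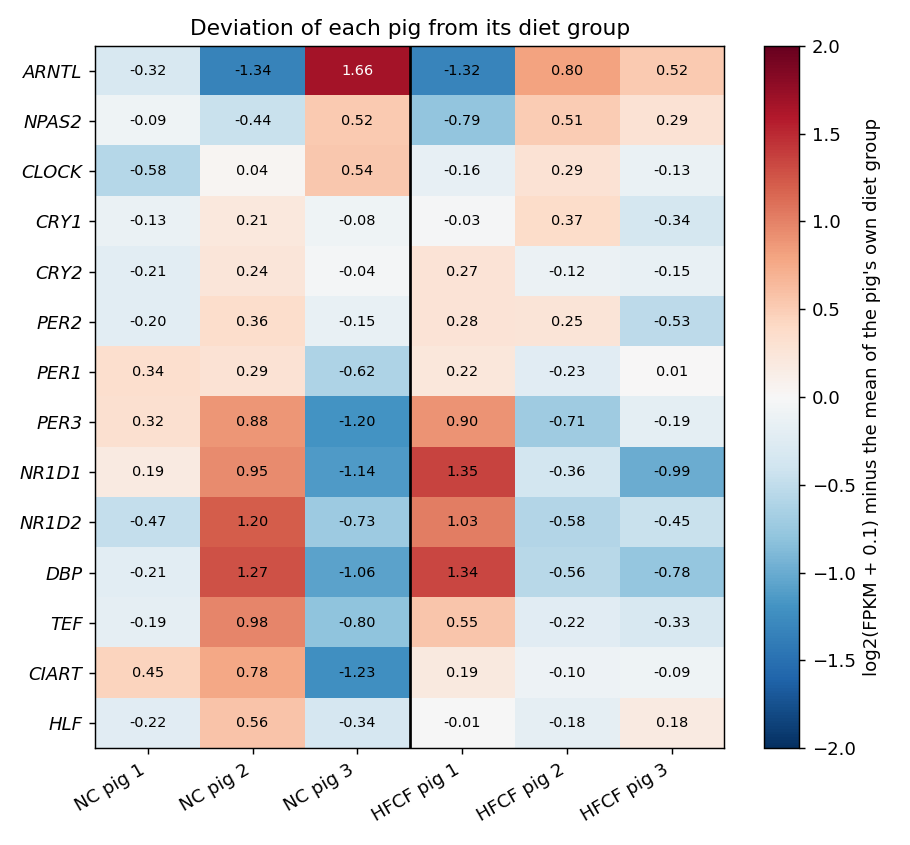
Deviation of log2(FPKM + 0.1) in each pig (columns) from the mean of its own diet group, for 14 circadian genes (rows), with red above and blue below the mean. ARNTL is lowest in NC pig 2 (-1.34) and HFCF pig 1 (-1.32), where NR1D1, NR1D2, DBP and PER3 are highest, and highest in NC pig 3 (1.66), where these 4 genes are lowest.

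Of the 9 clock genes other than ARNTL, 6 were highest, in both groups, in the pig with the lowest ARNTL. These were PER2, PER3, NR1D1, NR1D2, DBP and CRY2, and 15.4% of all tested genes met the same description. When a ratio of at least 2 between the highest and lowest pig was also required in both groups, the 4 genes PER3, NR1D1, NR1D2 and DBP remained, against 3.82% of all tested genes. This count was chosen after the values were seen, and it rests on 3 pigs in each group, 1 of them HFCF pig 1.

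The spread among pigs of the same diet was itself unequal among the clock genes. The within-group SD on the log2 scale was 1.35 for ARNTL, 1.17 for DBP, 1.14 for NR1D1, 0.97 for NR1D2 and 0.95 for PER3. These SDs exceeded those of 98.1%, 97.4%, 97.2%, 95.3% and 95% of the 11121 genes averaging 1 FPKM or more, whose median was 0.29. The SDs of CLOCK, PER1 and PER2 were 0.43, 0.41 and 0.39, and those of CRY1 and CRY2 were 0.29 and 0.23. The 2 called genes were among the 4 with the smallest spread. The limma interval is computed from this spread, so wide intervals for the genes that varied most within a diet follow from the calculation. By the same calculation a small spread makes a call easier.

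**Figure D4:**
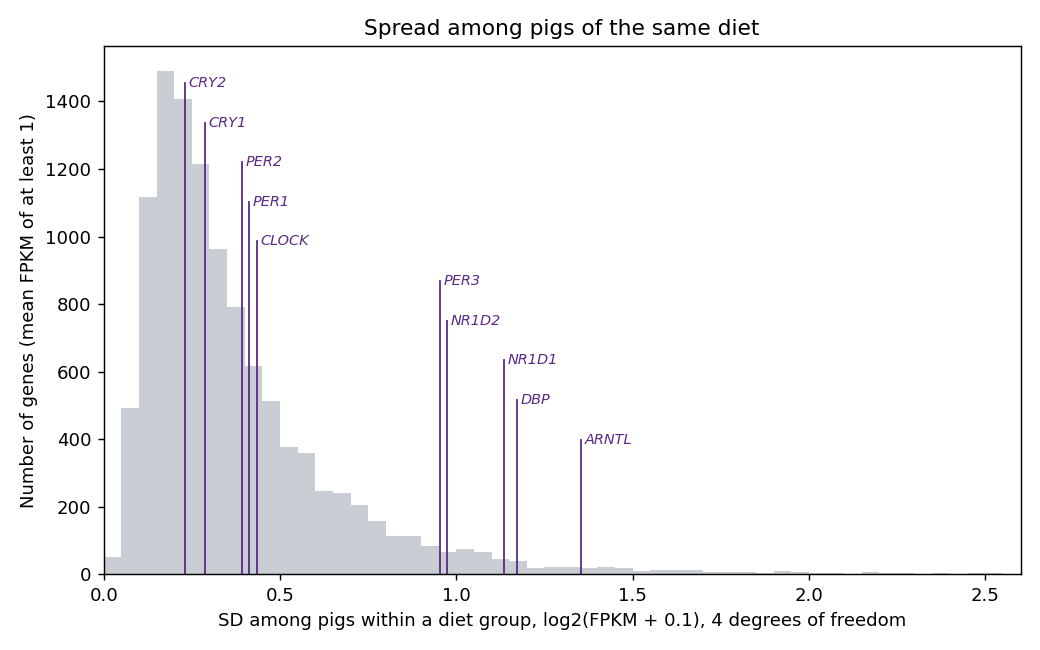
Number of genes averaging 1 FPKM or more (vertical axis, 11121 genes) by their SD among pigs within a diet group on log2(FPKM + 0.1) (horizontal axis), with the clock genes marked by lines whose heights carry no value. CRY2, CRY1, PER2, PER1 and CLOCK lie in the bulk of genes, and PER3, NR1D2, NR1D1, DBP and ARNTL in the right tail, from 0.95 to 1.35.

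Levels of cell type markers also differed among pigs of 1 diet. The 4 adipocyte markers summed to 73.3, 120.9 and 3.80 FPKM in NC pigs 1 to 3 and to 12.3, 5.58 and 17.1 FPKM in HFCF pigs 1 to 3. In the NC group their order was that of DBP, and in the HFCF group it was not, since pig 3 had the highest sum and the lowest DBP. The 6 endothelial markers summed to 182.4, 206.3 and 120.3 FPKM in the NC pigs. In the HFCF pigs their sums were 241.0, 160.1 and 99.5 FPKM. The sums had the order of DBP in both groups, as did PECAM1, VWF, TEK and TIE1 singly. The other markers did not keep that order throughout. ERG was highest in NC pig 3, where DBP was lowest, and in HFCF pig 2. CDH5 kept the order in the HFCF group, but in the NC group it was highest in pig 1, nearly level with pig 2. No adipocyte and no endothelial marker was called between the diets (limma, 0 of 4 and 1 of 6 at an unadjusted p under 0.05). Of all tested genes 28.9% were called. These counts did not show an absence of change. The log2 fold changes of all 4 adipocyte markers were negative, from -2.94 (ADIPOQ) to -0.48 (CIDEC). The limma interval of ADIPOQ ran from -6.62 to 0.75. Of the endothelial markers, 3 had positive and 3 negative log2 fold changes. TEK was higher in all HFCF pigs than in any NC pig (adjusted p = 0.0541, limma), as were 36.1% of all tested genes. The part of adipocytes and endothelial cells in the spread of the clock genes was not tested.

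The order of the mean levels was the same in both diets at its ends. PER1 and CRY2 had the highest means in each group, and ARNTL and CLOCK the lowest. In the HFCF group the ARNTL mean of 2.59 ± 1.59 FPKM was close to the PER3 mean of 2.64 ± 1.62 FPKM (SD, n = 3 each). ARNTL was above PER3 in NC pig 3 and HFCF pigs 2 and 3, and below it in the other pigs. In the NC group PER2 came next and NR1D1, PER3, CRY1, DBP and NR1D2 followed at 5.23, 5.21, 4.31, 4.29 and 4.05 FPKM, which did not differ beyond their spread. In the HFCF group PER2, at 5.67 FPKM, lay among NR1D2 (7.19), DBP (6.91) and NR1D1 (4.53).

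Among the 10511 genes that averaged 1 FPKM or more and had a symbol of their own, the profile over the 6 pigs most like that of DBP was that of NR1D2. The root mean square difference of their centred log2 values was 0.28. The next were EMCN, the endothelial sialomucin endomucin (0.35), and the kinase STK17A (0.36). NR1D1 ranked 57, CIART 215, TEF 282 and PER3 1245 in likeness to DBP. The 3 profiles most like that of ARNTL were those of STX1A, a syntaxin of vesicle fusion (0.39), WIF1, a secreted inhibitor of WNT ligands (0.49), and PENK, the precursor of enkephalins (0.51). STX1A was at 1.24, 0.89 and 4.77 FPKM in the NC pigs and 1.49, 3.97 and 3.44 FPKM in the HFCF pigs. At the other end, NR1D2, DBP, PER3 and NR1D1 ranked 9995, 10215, 10271 and 10276 in likeness to ARNTL. This difference grows with a gene's own spread among pigs as well as with an opposed profile, so these ranks alone do not show opposition.

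Of 28 further circadian genes 27 could be tested, and RORB was too low. Of these 1 rose and 4 fell in the HFCF group, 18.5% called against 28.9% of all tested genes, of which 22.8% were higher and 6.16% lower. Their median log2 fold change was 0.04, below the 0.32 of all tested genes.

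Among the activator partners and ROR receptors, 0 of 4 tested genes were called by limma, against 28.9% of all tested genes. An unadjusted p under 0.05 was found for 1 of them. NPAS2, which can stand in for CLOCK, was at 5.19, 4.04 and 7.96 FPKM in the NC pigs and 2.21, 5.60 and 4.80 FPKM in the HFCF pigs. Its order of pigs was the same as that of ARNTL in both groups. ARNTL2, a paralogue of ARNTL, was near the expression filter, with means of 0.15 ± 0.04 (NC) and 0.41 ± 0.07 FPKM (HFCF, SD, n = 3 each), no overlap and an adjusted p of 0.0546 (limma). Of all tested genes 36.1% were likewise higher without overlap.

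Among 10 clock-controlled factors and outputs 2 were called lower and none higher, 20% called against 28.9% of all tested genes. Of all tested genes 6.16% were called lower. USP2, a deubiquitinase that acts on clock proteins and is itself rhythmic, was at 13.9, 8.98 and 8.05 FPKM in the NC pigs and 3.56, 2.75 and 4.99 FPKM in the HFCF pigs. Its log2 fold change was -1.43 (standard error 0.29, adjusted p = 0.0130, limma), and it lost its call only without the expression filter. KLF10, a zinc finger factor under clock control, was at 39.9, 53.0 and 33.5 FPKM in the NC pigs and 26.0, 24.2 and 23.5 FPKM in the HFCF pigs (log2 fold change -0.75, adjusted p = 0.0253, limma). It kept its call in 8 of 15 alternatives and lost it without NC pig 1 or 2 or HFCF pig 2 or 3. TEF, a relative of DBP, was at 14.5, 32.6 and 9.42 FPKM in the NC pigs and 17.2, 9.99 and 9.29 FPKM in the HFCF pigs, the order of DBP in each group. HLF, in the same list, had that order in the NC pigs only, at 2.98, 5.21 and 2.73 FPKM. In HFCF pigs 1 to 3 it was at 4.78, 4.24 and 5.46 FPKM, highest in pig 3, where DBP was lowest. CIART, a repressor of ARNTL and CLOCK, was at 6.04, 7.65 and 1.83 FPKM in the NC pigs and 6.53, 5.30 and 5.34 FPKM in the HFCF pigs. BHLHE41, a repressor that competes for E-boxes, had a lowest HFCF value of 1.71 FPKM and a highest NC value of 1.33 FPKM, with an adjusted p of 0.0581 (limma).

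Among 13 regulators of clock proteins 1 rose and 2 fell, 23.1% called against 28.9% of all tested genes. PRKAA1, a catalytic subunit of the energy sensor AMPK that marks cryptochromes for degradation, rose. Its means were 1.84 ± 0.47 (NC) and 4.06 ± 0.20 FPKM (HFCF, SD, n = 3 each), the adjusted p was 0.0153 (limma), and the call was lost with quantile normalization. NCOR1, the co-repressor through which NR1D1 acts, fell, with means of 30.3 ± 1.15 (NC) and 20.7 ± 1.19 FPKM (HFCF) and an adjusted p of 0.0182 (limma). It lost its call without NC pig 1, without NC pig 2 and with the replicate block. CSNK1D, the casein kinase that phosphorylates period proteins, also fell, with means of 29.5 ± 3.82 (NC) and 20.9 ± 0.23 FPKM (HFCF) and an adjusted p of 0.0422 (limma). That call was lost in 9 of 15 alternatives, among them the removal of any 1 pig.

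Lists of glucocorticoid-responsive, immediate early and temperature-responsive genes were read beside these values. Of 6 glucocorticoid-responsive genes 2 were called lower and none higher, beside 6.16% lower and 22.8% higher among all tested genes. NR3C1, the glucocorticoid receptor itself, was at 3.24, 4.76 and 5.50 FPKM in the NC pigs and 2.50, 1.33 and 1.46 FPKM in the HFCF pigs (log2 fold change -1.32, adjusted p = 0.0213, limma). ZBTB16, a strongly glucocorticoid-induced factor, was at 71.5, 68.9 and 52.8 FPKM in the NC pigs and 8.63, 13.8 and 38.2 FPKM in the HFCF pigs (log2 fold change -1.94, adjusted p = 0.0274, limma). The call of ZBTB16 was lost in 7 of 15 alternatives, among them the removal of any 1 pig except HFCF pig 3, and that of NR3C1 in 6, among them without NC pig 2 or 3 or HFCF pig 2 or 3. FKBP5 and TSC22D3, also induced by glucocorticoids, were lowest in HFCF pig 1 and highest in HFCF pig 3, where they reached 88.4 and 66.1 FPKM, and neither was called. KLF9, of the same list, had this order too, at 19.3, 26.0 and 43.9 FPKM in HFCF pigs 1 to 3. SGK1 had the reverse order, at 46.3, 20.7 and 17.6 FPKM. KLF9 and SGK1 were not called.

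Among 10 immediate early genes none was called higher and only JUNB lower, beside 22.8% higher and 6.16% lower among all tested genes. In limma 2 of the 10 had an unadjusted p under 0.05. The means of JUNB were 354.8 ± 46.8 (NC) and 201.0 ± 62.8 FPKM (HFCF, SD, n = 3 each), with an adjusted p of 0.0368 (limma), and the call was lost in 8 of 15 alternatives, among them the removal of any 1 pig except HFCF pig 3. DUSP1 was higher in all HFCF pigs than in any NC pig, as were 36.1% of all tested genes (adjusted p = 0.0587, limma). The 4 temperature-responsive genes that could be tested gave 0 calls in limma and 3 at an unadjusted p under 0.05. Of these, HSPA8 was at 68.0, 77.7 and 66.6 FPKM in the NC pigs and 177.3, 102.1 and 95.7 FPKM in the HFCF pigs. Whether hormonal, acute or temperature signals had a part in the fall of PER2 was not tested.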

How the data were processed

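FPKM values of 6 libraries were used as deposited. The submitters' processing notes also name cutadapt 1.9 and FastQC. The authors aligned reads with HISAT2 to a pig genome that the methods name as Sscrofa 10.2, and assembled them with StringTie, so each FPKM is a share of its own library and carries no read count. The lowest deposited values, 0.0001 and under, were kept as they are and left out of the factors for median-ratio scaling. Gene names were taken from the table, then from gene IDs. RefSeq of Sscrofa11.1 served only for names and overlaps, and gives no strand there. The fit was limma 3.58.1 in R 4.3.3, with diet as the only factor and eBayes with a variance trend. It was tested on simulated data. Precision rests on 3 pigs per group, for which an exact two-sided permutation test of 1 gene cannot go below p = 0.1. The members and lists were chosen with earlier results of these data known. Named were all 10 members, called genes of the circadian, glucocorticoid, immediate early and temperature lists, overlapping genes, and the 3 profiles nearest to ARNTL and to DBP. Other genes were named after their values were seen. CIRBP and HSP90AA1 were not analysed here. Alternatives changed the pseudocount, filter, scaling, variance trend and replicate block or left out each pig. Lists were counted without set tests. Sequences were not analysed here. 1 clock protein regulator is counted in its list but not reported here.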

Additional observations from a re-analysis of the deposited data

How the results depend on the processing

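The count of 2 called clock genes held in 14 of 15 alternatives and was 3 without NC pig 3, where PER1 was added; with each pig left out it was 2 to 3. The difference between the E-box-driven and activator limbs stayed negative in all 13 alternatives, of which 1, without PER2, was added after the data were seen (-0.86). It was -2.14 to -0.44 with each pig left out. In each alternative it moved by less than the SD among pigs pooled over the diets. That SD is larger than the main difference of -1.18, so this limit was a wide one. Among clock genes not called in any alternative, the log2 fold change ran from -1.48 to -0.44 for PER3, 0.37 to 1.49 for NR1D2 and -0.75 to -0.12 for CRY1. The other circadian genes gave 5 calls, 3 without a filter, 2 with the replicate block and 2 to 4 with each pig left out. The hormonal, immediate early and temperature lists gave 3 calls, 0 without a filter, 0 with the replicate block and 0 to 3 with each pig left out (limma; 4 genes without a filter and 6 with the block at an unadjusted p under 0.05). The cell type lists gave 17 calls, 8 without a filter and 10 to 19 with each pig left out. Without the filter 30477 genes were tested. Over all genes 4452 were called, 2514 without a filter, 2398 without NC pig 1, 2879 without NC pig 2 and 2936 without HFCF pig 2. Whether the replicate numbers pair the pigs is not stated in the sources used here. The same-number correlations of deviations from the group means were 0.02, -0.08 and -0.07 across genes. With 3 pigs a group these cannot show that the pigs were unpaired. With the replicate block PER2 and CRY2 had adjusted p-values of 0.0123 and 0.0161 (limma), the block changed no call among the clock genes, and 2772 of all genes were called. With 3 pigs a group, the intervals of ARNTL, DBP and NR1D1 were more than 3 log2 units wide, too wide to show a 2-fold change. The cause of the lost calls was not tested.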
